A study of Homo sapiens with 4 samples.

Results

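CpG methylation was compared between 2 bisulfite sequencing libraries of B3GALT5-/- H9 cells (H9 is an established human embryonic stem line): KO naive cells grown in 2iLAF medium, and KO primed cells grown in basal medium. The knocked-out gene encodes a galactosyltransferase that extends glycosphingolipids. The compared cytosines lie on the 22 autosomes, were listed in both libraries and had at least 10 reads in each. These were 785693 of the 2724721 autosomal cytosines listed in any of the 4 libraries of the series. The other 2 libraries are wild type (WT) H9 cells, primed in basal medium and naive in 5iLAF medium. Between the WT and KO naive cells the genotype and the medium differ together and cannot be told apart. Each group is 1 library, so no p-value between conditions can be given, and the SDs below are taken over cytosines. The labels do not say whether the knockout line is 1 clone, and the knockout was not checked against B3GALT5 here. No RNA was measured, so the labelled cell states were not checked against marker expression.

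DNA methylation at CpG is set by the DNMT3 enzymes and copied after replication by DNMT1, which UHRF1 brings to newly made DNA; TET enzymes oxidise it. Primed human embryonic stem cells resemble the epiblast after implantation and are highly methylated. Naive cultures resemble the epiblast before implantation and are known for genome-wide loss of methylation, including loss at imprinted regions, where only the allele of 1 parent carries the mark. The promoters of germline genes and of the oocyte and embryo genes DPPA3 and DPPA5 are classic targets of CpG methylation in primed cells.

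Promoter sequences from RefSeq (GRCh38.p14) were placed on the hg19 positions of the files by their CpG pattern. Below are the 250 bases before the start of 4 genes that stand for the kinds of change described further on, picked after their values were seen: DPPA3 and TDRD1, which lost methylation, DIRAS3, which kept most of it, and PRKAR1B, which was higher in the naive library. They run 5′ to 3′ along the gene. Capitals mark CpGs with a cytosine measured on either strand, and a last capital C belongs to a CpG that the end of the window splits.

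DPPA3: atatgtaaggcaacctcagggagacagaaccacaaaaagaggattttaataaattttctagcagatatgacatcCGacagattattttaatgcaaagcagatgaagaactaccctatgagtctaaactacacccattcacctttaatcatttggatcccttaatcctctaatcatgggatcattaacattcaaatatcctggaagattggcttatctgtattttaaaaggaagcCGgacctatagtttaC
TDRD1: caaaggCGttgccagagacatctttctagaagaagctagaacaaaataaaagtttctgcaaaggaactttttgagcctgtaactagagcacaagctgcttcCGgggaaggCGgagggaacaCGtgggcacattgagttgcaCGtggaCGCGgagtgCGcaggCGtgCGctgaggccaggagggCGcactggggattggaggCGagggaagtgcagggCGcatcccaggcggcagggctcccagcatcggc
DIRAS3: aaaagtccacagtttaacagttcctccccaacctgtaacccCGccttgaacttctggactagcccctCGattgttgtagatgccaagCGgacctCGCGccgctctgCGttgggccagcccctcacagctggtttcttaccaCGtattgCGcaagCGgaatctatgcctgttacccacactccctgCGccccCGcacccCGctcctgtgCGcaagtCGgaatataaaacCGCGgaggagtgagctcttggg
PRKAR1B: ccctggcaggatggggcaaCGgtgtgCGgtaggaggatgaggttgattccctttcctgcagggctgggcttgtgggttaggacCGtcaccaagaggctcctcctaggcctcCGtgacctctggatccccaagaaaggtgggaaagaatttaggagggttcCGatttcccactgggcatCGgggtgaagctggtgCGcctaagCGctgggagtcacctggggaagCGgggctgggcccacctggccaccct

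In hg19 these stretches are chr12:7863779-7864028 on the plus strand for DPPA3, chr10:115938862-115939111 on the plus strand for TDRD1, chr1:68516311-68516560 on the minus strand for DIRAS3 and chr7:752578-752827 on the minus strand for PRKAR1B. The TDRD1 stretch holds 15 CpGs, of which 13 were measured. DIRAS3 holds 17, with 16 measured. All 9 CpGs of PRKAR1B and the 2 whole CpGs of DPPA3 were measured.

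Methylation was lower in the KO naive library across the genome. The mean level fell from 77.0% (SD 27.4) in KO primed to 55.04% (SD 26.3) in KO naive cells, a difference of -21.9 points (SD 22.8) and 0.715 times the primed mean. The level was lower at 84.2% of cytosines and higher at 14.2%. All 22 autosomes had a lower mean (-23.2 points for chromosome 13 and -20.4 points for chromosome 9 were the extremes), and so did each of the 2068 windows of 1 Mb with at least 100 cytosines. The KO primed library held 28706169 context reads and the KO naive library 41016760. The compared cytosines had a median of 17 and 23 reads.

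Among the listed cytosines the loss was mostly partial. Fully methylated cytosines became rare: 28.3% of cytosines stood at 100% in KO primed and 1.85% in KO naive cells. Cytosines at 80% or above went from 63.8% (Wilson 95% interval 63.7 to 63.9%) to 20.5% (20.4 to 20.6%), and those at 20% or below from 7.54% (7.48 to 7.59%) to 14.2% (14.1 to 14.3%). The share between these limits rose from 28.7% to 65.3%. These intervals cover counting error only. Cytosines with no methylated read in KO naive cells are not listed, so complete losses are missed in these shares. Of cytosines at 80% or above with at least 10 reads in KO primed cells, 0.981% were unlisted in KO naive cells, for lack of coverage or of methylation. Of the 222265 cytosines at 100% in KO primed cells, which were chosen on the level that the difference subtracts, the naive median was 71.9% (interquartile range 57.1 to 83.3%), while 3.78% were still at 100% and 2.58% were at 20% or below.

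**Figure D1:**
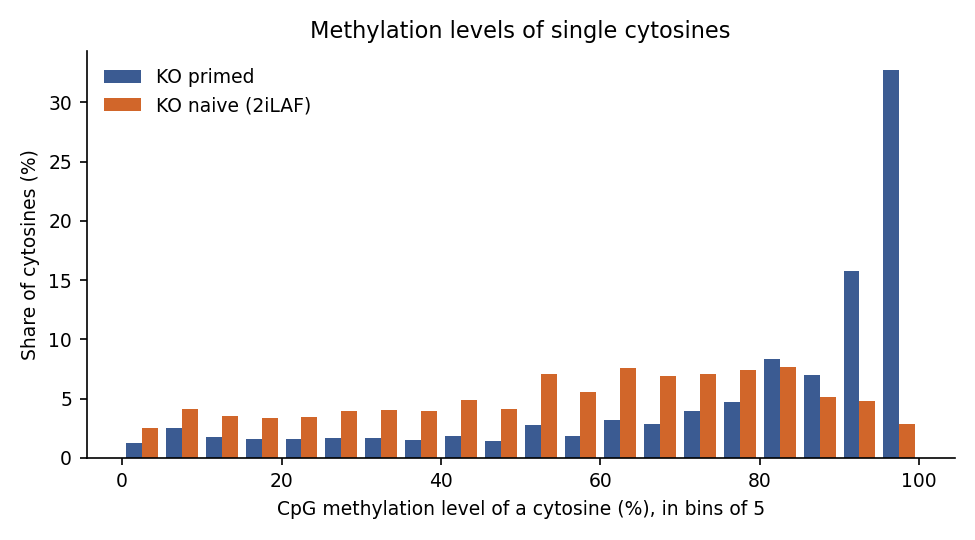
Share of the 785693 cytosines (y axis, %) by CpG methylation level in bins of 5 points (x axis, %), as blue bars for KO primed and orange bars for KO naive cells in 2iLAF. The tall primed bars near 100% give way to a broad naive distribution, with 65.3% of cytosines between 20 and 80%.

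Single cytosines were tested on their methylated and unmethylated reads by the two-sided Fisher's exact test. A call required a Benjamini-Hochberg adjusted p below 0.05 together with 25 points or more between the libraries. This called 184038 cytosines lower (23.4% of those tested) and 2950 higher (0.375%). The test compares 2 libraries and takes reads as independent. The strands of 1 CpG disagreed within a library by 4.50 times the binomial variance in KO primed and 2.81 times in KO naive cells. With reads scaled down by these ratios, 1241 lower calls and 1 higher call were made under the same adjusted test, and 35898 and 290 passed at an unadjusted p under 0.05.

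In 1 kb tiles with at least 5 cytosines, 15769 of 44341 (35.6%) were lower and 113 (0.255%) were higher. The rule of size behind these counts, which is no test, asks for 25 points or more in the tile mean and the same direction in 80% or more of the cytosines. Near its limit, 1044 tiles had a drop of 25 to 26 points and 1118 a drop of 24 to 25 points. Of the 26688 tiles at 80% or above in KO primed cells, again chosen on the level that is subtracted, the naive median was 68.2% (interquartile range 57.1 to 76.8%). Of these, 383 (1.44%) were at 20% or below in KO naive cells, and 4353 (16.3%) were still at 80% or above. Within a tile the cytosines spread about as much in KO naive (mean SD 14.8 points) as in KO primed cells (14.3 points). In the 21952 tiles that went from 80% or above to between 20 and 80% it was 10.8 points in KO primed and 15.5 points in KO naive cells.

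**Figure D2:**
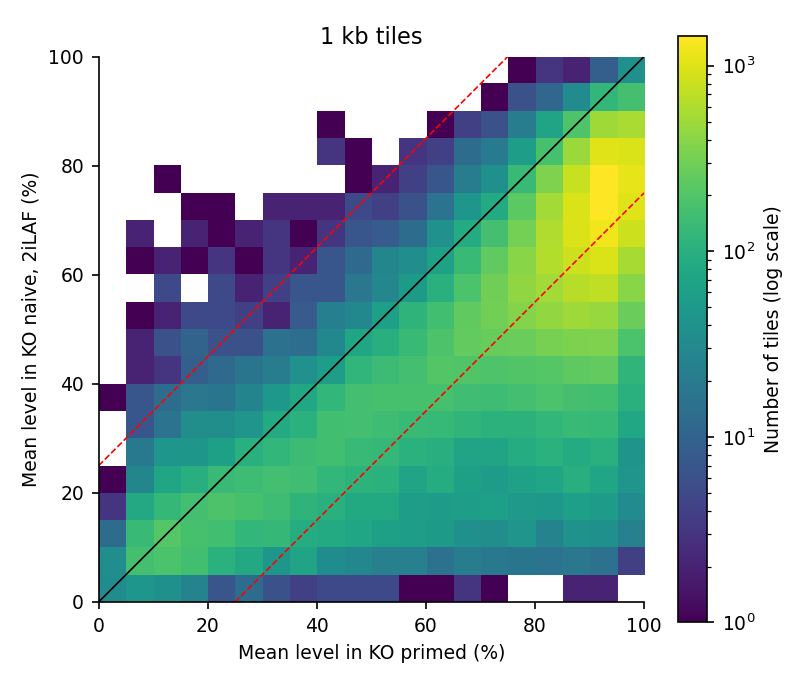
Each square counts 1 kb tiles (log colour scale) by mean level in KO primed (x axis, %) and KO naive cells (y axis, %), with the black diagonal at equal levels and red dashed lines at a difference of 25 points. The densest squares lie under the diagonal at primed levels above 80%, and 113 tiles passed the rule of size upwards.

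Nearby tiles differed alike, distant tiles much less so. Differences of tiles 1 kb apart had a Pearson r of 0.468 over 5721 pairs, against 0.0829 over 2387 pairs at 10 kb, a description across tiles of the same 2 libraries. Sites with more listed CpGs nearby fell by less. A CpG counts as listed if any of the 4 libraries, KO naive included, has a methylated read there. These classes therefore depend on methylation as well as on the sequence. Among cytosines at 80% or above in WT primed cells, a library the difference does not use, the level fell by 25.4 points with 1 to 5 listed CpGs within 250 bp and by 21.3 points with over 40. The share still at 80% or above in KO naive cells was 24.2% in the former and 40.6% in the latter class.

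**Figure D3:**
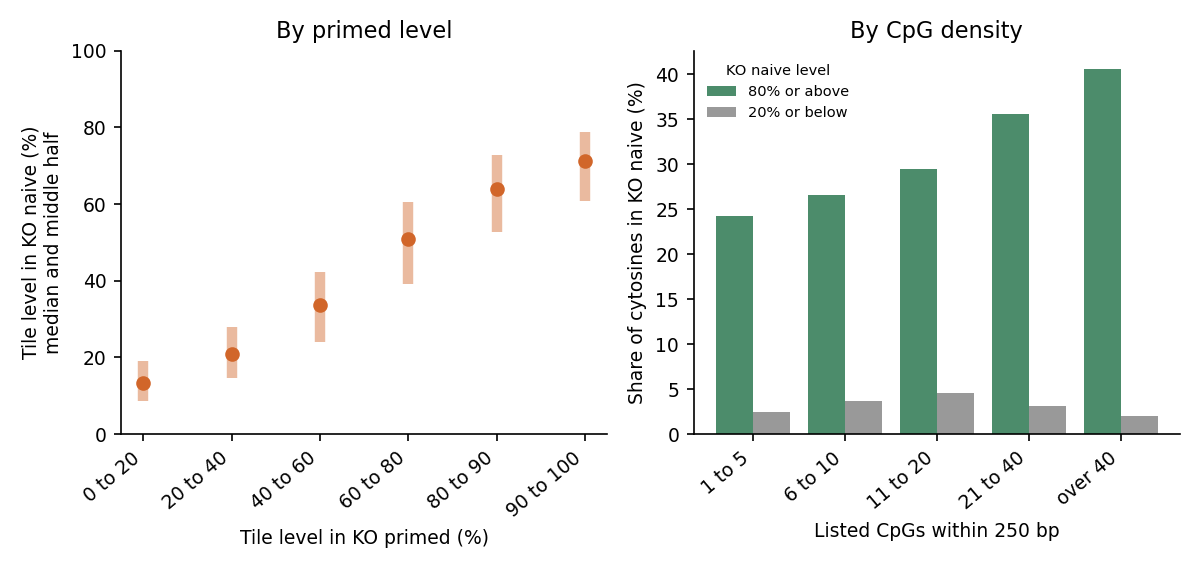
Left, median (point) and interquartile range (bar) of the KO naive level of 1 kb tiles (y axis, %) by their KO primed level (x axis, %); right, share of cytosines (y axis, %) at 80% or above or at 20% or below in KO naive cells by the number of listed CpGs within 250 bp, for cytosines at 80% or above in WT primed cells. The share at 80% or above goes from 24.2% in the sparsest to 40.6% in the densest class.

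A small set of regions lost nearly all methylation. The 10 largest decreases among tiles with at least 10 cytosines started at 90.5 to 98.6% in KO primed and ended at 6.46 to 13.2% in KO naive cells. The first, chr19:53088001-53089000, went from 95.6% (SD 6.42) to 7.22% (SD 4.63) over 21 cytosines, all 21 of them called lower by the Fisher's exact test with Benjamini-Hochberg adjustment; no cytosine of the KO naive library was above 17.4% and none of the KO primed library below 77.3%. In WT cells the same tile went from 94.9% to 17.4% over 16 cytosines. The tile chr6:159291001-159292000 overlaps the placed promoter of LINC02901, a non-coding RNA gene, and went from 94.6% (SD 11.2) to 6.97% (SD 2.88). The tile chr11:126273001-126274000 overlaps the promoter of ST3GAL4, a sialyltransferase, and went from 93.2% (SD 10.6) to 8.49% (SD 6.87). The tiles were ranked on these libraries, so their differences are extremes.

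Adjacent tiles fell together in places. The longest run of adjacent lower tiles had 6 tiles, chr13:45950001-45956000, and went from a mean of 89.1% to 18.01% over 84 cytosines. The lowest primed tile of the run stood at 79.2% and the highest naive tile at 35.0%. It lies in the 1 Mb window from 45000001 on chromosome 13, whose mean fell by 39.2 points. The window from 58000001 on the same chromosome fell by 44.3 points over 110 cytosines.

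Gains were rare among the listed cytosines and mostly started from low levels. Cytosines with no methylated read in KO primed cells are not listed, so gains at such sites are missed. With unlisted cytosines filled in at 0, 182 of 49449 tiles were higher. The 113 higher tiles had a primed median of 18.4% and a naive median of 54.3%, and 65 of them were at 20% or below in KO primed cells. The largest gain among tiles with at least 10 cytosines, chr17:4763001-4764000, went from 13.2% (SD 7.22) to 77.6% (SD 15.5) over 19 cytosines, of which 17 were called higher by the adjusted Fisher's exact test. In WT cells it went from 18.1% to 68.2%. The tile chr22:19751001-19752000 went from 9.67% (SD 5.24) to 67.5% (SD 16.2) in KO cells and from 10.5% to 65.8% in WT cells. The longest run of higher tiles, chr5:491001-494000, had 3 tiles and went from a mean of 18.9% to 67.4% over 42 cytosines. Its first tile went the other way in WT cells, from 56.7 to 27.8% over 5 cytosines. The tile chr4:13524001-13525000 also differed, at 22.5 and 66.1% in KO cells and 47.6 and 40.3% in WT cells.

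Many tiles kept their methylation: 230 runs of adjacent tiles, with 501 tiles in all, were at 80% or above in both libraries. At chr10:127461001-127462000 all 10 cytosines stood at 100% in both libraries. At chr16:909001-910000, with 48 cytosines, the level was 86.9% (SD 12.3) in KO primed and 86.8% (SD 11.03) in KO naive cells. The run chr5:259001-263000 stood at 91.6% in KO primed and 87.6% in KO naive cells over 213 cytosines. These tiles were picked for small differences, and several of the smallest change sign with the processing.

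Promoters, taken as 250 bases before to 50 bases after a RefSeq start, were measured with at least 5 cytosines for 1230 genes. Of these 514 (41.8%) were lower by the rule of size and 3 (0.244%) higher. The median of the differences per promoter was -22.0 points, and the median level was 81.6% in KO primed and 47.2% in KO naive cells. A promoter could be placed only where enough of its cytosines are listed, and unmethylated cytosines are not listed, so these are not all promoters. For a gene with several placed windows, only the window with the most measured cytosines was kept. The kept window need not be the main start of the gene. Among the 645 promoters at 80% or above in KO primed cells, 21 (3.26%) were at 20% or below in KO naive cells and 73 (11.3%) were still at 80% or above. Of 649 promoters also measured in WT cells, 277 were lower in KO and 288 in WT. The 193 lower in both are 69.7% of the former, against 44.4% of all 649 lower in WT. They are 67.0% of the latter, against 42.7% of all 649 lower in KO.

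Of 28 listed naive state genes 3 had a measured promoter, and 2 of them, DPPA3 and DPPA5, were lower by the rule of size, against 41.8% of all promoters. DPPA3, a maternal factor that acts in the oocyte and early embryo and binds UHRF1, went from 93.9% (SD 6.86) to 26.3% (SD 5.56) over 6 cytosines; its window was placed between neighbours. Its KO primed cytosines lay between 81.3 and 100% and its KO naive ones between 20 and 34.6%. All 6 were called lower by the adjusted Fisher's exact test. In WT cells it went from 91.4% to 17.9%. DPPA5, an RNA-binding protein of pluripotent cells, went from 91.1% (SD 9.11) to 28.7% (SD 14.7) over 5 cytosines. OOEP, a subunit of the maternal complex of the oocyte, stood at 91.9% (SD 1.40) and 68.3% (SD 9.52), just short of the rule.

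Germline genes differed widely in their loss. Of 32 listed genes 10 were measured and 7 were lower, against 41.8% of all promoters. TDRD1, a tudor protein of the piRNA pathway, had the largest drop of the list, from 95.5% (SD 7.93) to 21.4% (SD 9.80) over 17 cytosines, 16 of them called lower by the adjusted Fisher's exact test. Along TDRD1 the naive level was 86.7% at position -878 from the start and 5.56% at position 229, while the primed level was 90.5 and 82.4% at these cytosines. STK31, a kinase of the testis, went from 95.2% (SD 7.81) to 43.6% (SD 15.0). Its cytosines from 301 to 356 bases after the start stood at 93.3 to 100% in KO naive cells.

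The synaptonemal complex genes SYCP1 and SYCP3 went from 93.8 to 49.02% and from 97.2 to 42.4%. STAG3, the meiotic cohesin subunit, went from 73.8% (SD 27.5) to 21.9% (SD 11.9), and ASZ1, a piRNA pathway protein, from 96.4% (SD 4.70) to 64.4% (SD 13.8). FKBP6, a co-chaperone of the piRNA pathway, went from 87.6 to 62.0% over 53 cytosines. It no longer passed with at most 100 reads (-24.97 points) or with 10 reads drawn (-23.2 points), and it has near-identical copies, so its reads may be misplaced. TDRD5 (87.6 to 63.9%), RNF17 (95.4 to 78.4%) and BOLL (34.4 to 36.1%) did not pass. RNF17 went the other way in WT cells, from 76.8 to 90.7%.

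**Figure D4:**
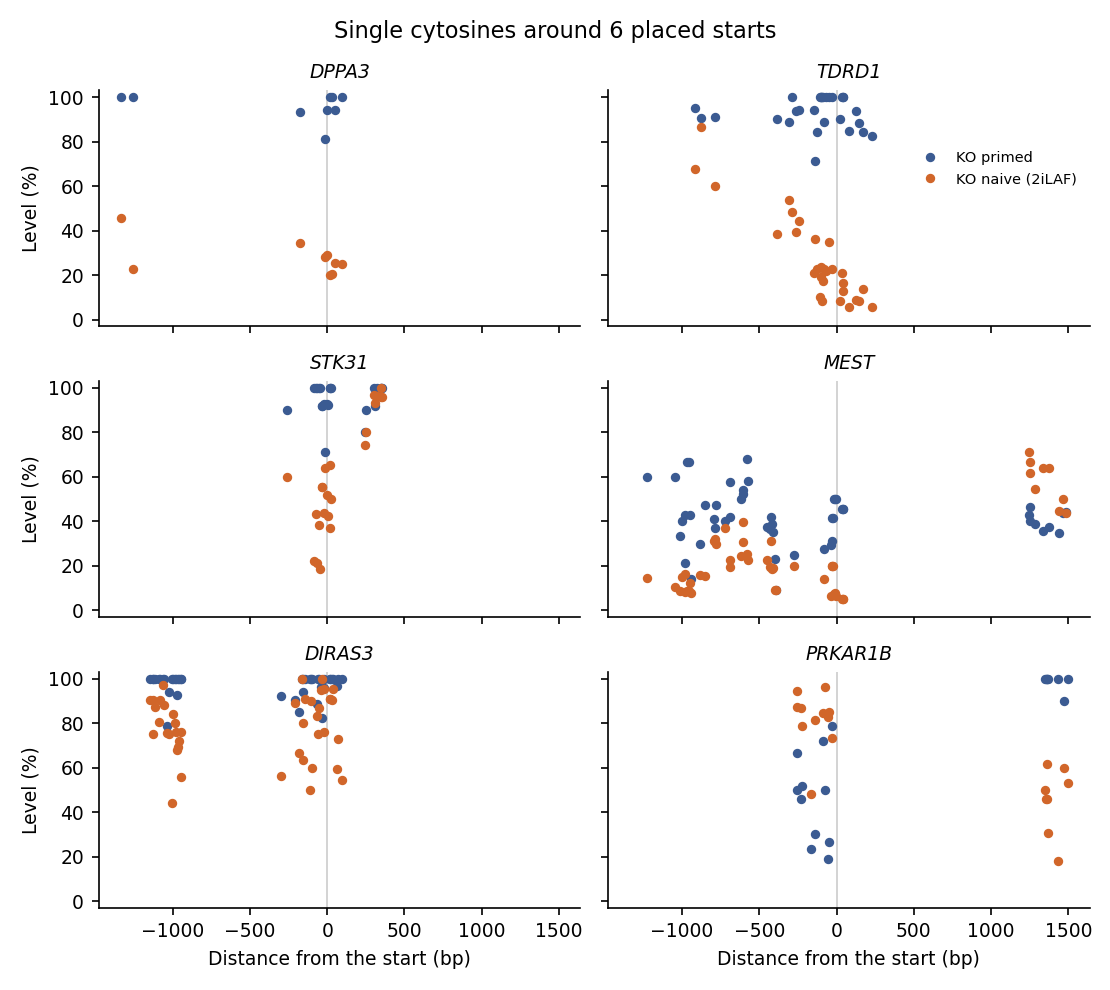
Methylation level of single cytosines (y axis, %) by distance from the placed start (x axis, bp), in KO primed (blue) and KO naive cells (orange). Near the start of TDRD1 naive levels lie far under primed ones, whereas STK31 cytosines from 301 bases after the start stay at 93.3% or above.

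The 2 measured trophoblast genes of 16 listed were both lower, against 41.8% of all promoters. HLA-G, a non-classical histocompatibility gene of extravillous trophoblast, went from 94.4% (SD 6.15) to 49.5% (SD 8.95) over 15 cytosines, and in WT cells from 90.2 to 22.4%. CGB3, a chorionic gonadotropin subunit gene with near-identical copies, went from 80.5 to 32.4%, in a window placed between neighbours. HOXB1, the measured germ layer regulator, stood at 31.7% in KO primed and 45.2% in KO naive cells and did not pass. TET2, the measured gene of the methylation machinery, stood at 16.7 and 7.88% and did not pass either.

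Imprinted genes spread widely in both libraries, from 20.1 to 96.6% in KO primed and from 10.7 to 83.5% in KO naive cells. Of 46 listed genes 10 were measured. All 10 had a lower mean in the naive library, as did 1116 of all 1230 promoters. By the rule of size 3 were lower, against 41.8% of all promoters. MEST, whose promoter is normally methylated on the maternal allele, went from 41.6% (SD 8.38) to 10.7% (SD 6.44) over 11 cytosines, and none of these was called by the adjusted Fisher's exact test at 12.5 reads per cytosine in KO primed cells. With a minimum of 5 reads MEST no longer passed, at -23.2 points over 16 cytosines. The 9 cytosines from 1244 to 1484 bases after its start went the other way or stood level, at 35 to 46.7% in KO primed and 43.6 to 71.4% in KO naive cells. The kept GNAS window, chr20:57463218-57463517, went from 60.6% (SD 15.7) to 20.4% (SD 4.70). Which of the starts of GNAS this window covers was not checked. MCTS2, a retrogene, went from 76.6% (SD 8.45) to 31.8% (SD 5.05) over 14 cytosines in KO cells, but from 9.18 to 31.5% in WT cells. Its primed levels differed between the genotypes by far more than its naive levels.

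Other imprinted promoters changed less. DIRAS3, a RAS family tumour suppressor, stood at 96.6% (SD 5.64) in KO primed and 83.5% (SD 14.0) in KO naive cells over 20 cytosines, with 2 called lower by the adjusted Fisher's exact test. This difference of -13.2 points was -5.54 with at least 20 reads and -5.04 with 10 reads in all 4 libraries. ZNF331 stood at 92.5 and 83.2%, and HTR2A, a serotonin receptor gene, at 94.6 and 72.5%. DIRAS3, ZNF331 and HTR2A were thus at 92.5% or above in KO primed cells, more than 1 methylated allele would give. Their naive levels are therefore no measure of a kept imprint. GRB10 (39.9 to 23.5%), NAA60 (36.7 to 19.002%), INPP5F (28.7 to 22.4%) and SVOPL (20.1 to 15.6%) did not pass the rule. SVOPL started too low to fall by 25 points. With a minimum of 5 reads the difference of GRB10 was -26.7 points, against -16.4 points with 10. For NAA60 the difference turned to 1.30 points with a minimum of 5 reads and to 8.10 points with strands merged.

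Of 53 protocadherin genes, which encode cell adhesion proteins of neurons from clustered alternative promoters, 10 were measured and 5 were lower, close to the 41.8% of all promoters. PCDHB8 went from 79.5 to 23.2%, PCDHGB5 from 64.4% (SD 17.0) to 12.3% (SD 4.73) over 19 cytosines, PCDHGB2 from 62.9 to 13.9%, PCDHGA11 from 67.2 to 18.7% and PCDHGA9 from 82.3 to 38.0%. PCDHB16 stood at 18.3 and 10.004% in KO cells and at 23.5 and 43.4% in WT cells. PCDHB16, PCDHB4 (24.5 to 11.5%) and PCDHGB4 (22.1 to 3.13%) started too low in KO primed cells to fall by 25 points. These genes are close paralogs, and reads could be misplaced among them. No gene of the lists of shared pluripotency genes, primed markers, glycosphingolipid enzymes or RAS-ERK genes had a measured promoter.

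**Figure D5:**
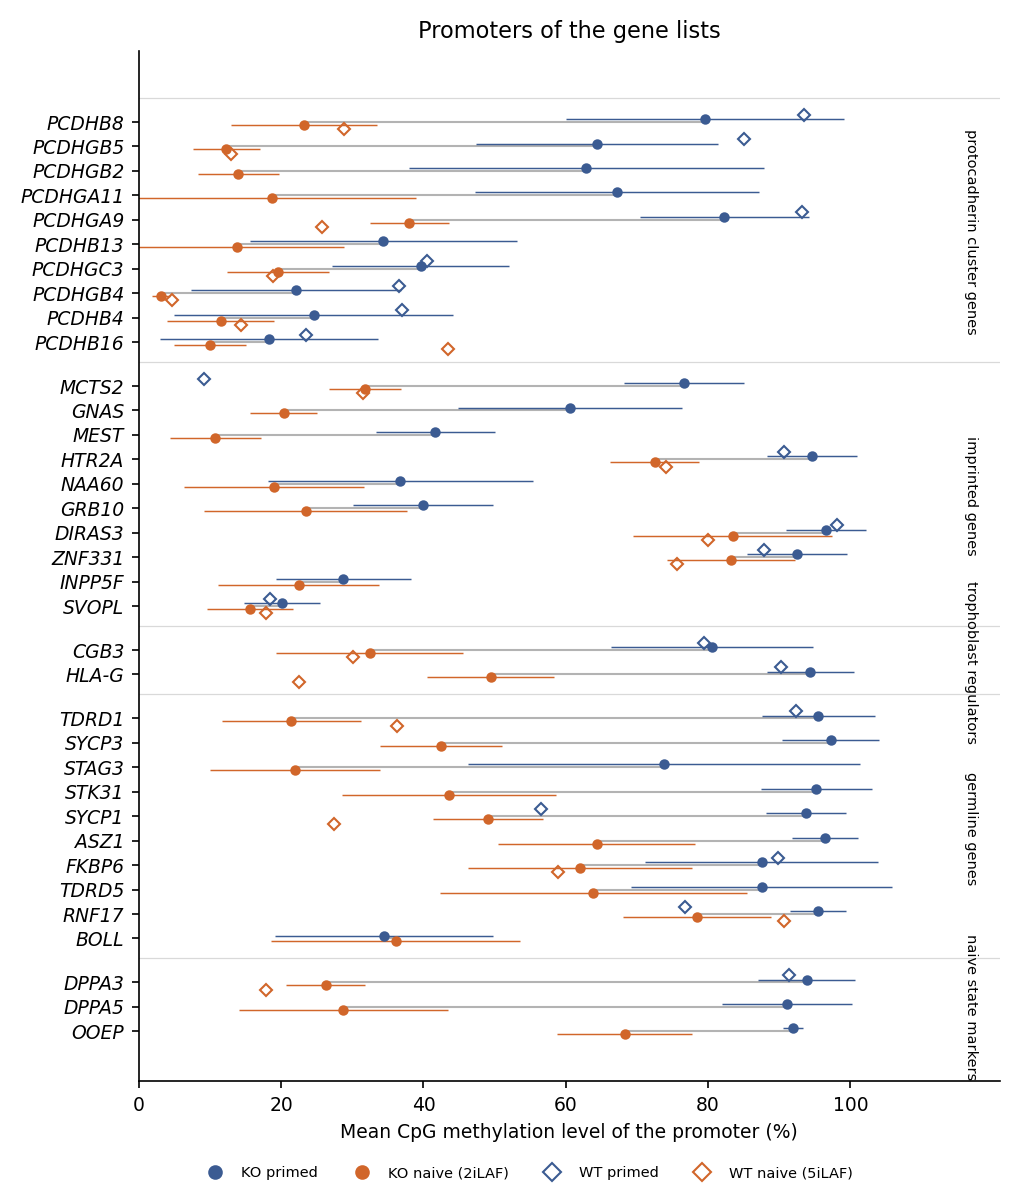
Mean promoter methylation level (x axis, %) of list genes (y axis) in KO primed (blue points) and KO naive cells (orange points), with bars of 1 SD over cytosines; open diamonds give WT primed and WT naive cells in 5iLAF where measured. For MCTS2 the WT primed level (9.18%) lies far under the KO primed level (76.6%).

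Over all promoters the largest decreases went to genes of many kinds. PROZ, a vitamin K-dependent plasma protein, went from 100% to 8.54% (SD 2.96) over 6 cytosines; it stood at 59.0 and 13.1% in WT cells. KHDC1, a KH domain gene of the oocyte, went from 100% to 14.6% (SD 7.97), measured on the same cytosines as LOC122539213. ST3GAL4 went from 92.1% (SD 11.4) to 9.11% (SD 7.44) over 13 cytosines, all called lower by the adjusted Fisher's exact test. DRC4, a ciliary protein, went from 94.1 to 12.7%, ACOT4, a peroxisomal thioesterase, from 92.7 to 14.0%, ANAPC11, a subunit of the anaphase-promoting complex, from 83.3 to 5.35%, and ATXN7L1 from 87.1 to 10.98%. CLRN1-AS1 went from 96.9 to 15.4% on cytosines it shares with CLRN1.

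The 3 higher promoters were CHRNA9, a nicotinic receptor subunit, from 17.1% (SD 7.43) to 54.3% (SD 14.7) over 5 cytosines; PRKAR1B, a regulatory subunit of protein kinase A, from 44.1% (SD 21.3) to 79.6% (SD 13.3) over 9; and LINC02723 from 44.1% (SD 33.9) to 71.8% (SD 20.5) over 7. They held 3, 4 and 2 cytosines called higher by the adjusted Fisher's exact test. LINC02723 no longer passed with a minimum of 5 reads (17.4 points) or with strands merged (21.4 points). From 1350 to 1497 bases after the PRKAR1B start the direction was the opposite, with 90 to 100% in KO primed and 18.2 to 61.5% in KO naive cells. Among promoters at 80% or above in KO primed cells, the 10 highest naive levels included SEMA6A-AS1 (97.5 to 92.8%), DOCK8 (92.03 to 91.98%), a guanine nucleotide exchange factor of immune cells, ANGPTL8 (91.98 to 89.8%), a regulator of lipoprotein lipase, FAM193A (88.8 to 89.6%) and TACR3 (93.4 to 89.2%), the neurokinin B receptor.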

How the data were processed

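Bisulfite libraries were made with a methyl capture kit, with 99% conversion from a lambda spike-in per the labels' protocols, and the submitters' processing notes name the build hg19 (GRCh37). Which aligner, caller and duplicate handling were used is not given in the sources used here. Per the file headers, the deposited tables give read counts per cytosine and strand (total, context and methylated coverage) and a methylation fraction. The fraction equalled methylated over context coverage. No row has 0 methylated reads, so a missing row means no coverage or no methylated read, and levels near 0 are raised by selection. Of cytosines with at least 10 reads in KO primed cells, 7.75% were unlisted in KO naive cells (0.981% of those at 80% or above), and of those in KO naive cells 11.6% were unlisted in KO primed cells. About 82% of rows lie on the minus strand.

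Levels were methylated over context reads with equal weight per cytosine (pandas 2.3.3, numpy 2.4.6, scipy 1.17.1). Fisher's exact tests used Benjamini-Hochberg adjustment over all cytosines; tiles and promoters used a rule of size (at least 5 cytosines, 25 points, 80% of cytosines moving that way). Scripts were tested on simulated data. Named tiles and promoters were the 10 largest decreases and increases, 10 with the smallest difference or highest naive level, and the list genes; the text gives a selection. The members and lists were chosen with earlier results of these data known.

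Promoters were placed by requiring every listed cytosine in the window to fall on a CpG of the RefSeq sequence. The planned rule, at least 10 listed cytosines at a unique place, put 48.4% of 5165 windows in gene order and was replaced. A first looser rule (0.001 expected chance placings) had 61.5% of its placings on the chromosome in order. The final rule needed under 1e-06 expected chance placings, uniqueness and gene order, or the same between placed neighbours at most 1 Mb apart; 97.0% of 2850 windows were in order, and 3182 windows of 2867 genes were placed. The final limits were set after promoter levels had been seen, when a gene placed by a second looser rule proved misplaced. GRCh38 starts gave gene order only; a side check of distances to those starts also informed the last change.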

Additional observations from a re-analysis of the deposited data

Results flagged for a closer look

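Of the tiles and promoters named, 3 moved by at least 10 points in opposite directions in KO and WT cells, with 1 library per group, and the difference between the genotypes was not tested. The tile chr5:491001-492000 differed by 54.8 points between KO naive and KO primed cells (15.7 to 70.5%, 26 cytosines) and by -28.9 points in WT cells (56.7 to 27.8%, 5 cytosines). The promoter of MCTS2 differed by -44.8 points in KO and 22.3 points in WT cells. The promoter of RNF17 differed by -17.0 points in KO (6 cytosines) and 13.9 points in WT cells (5 cytosines). Between the naive libraries the genotype and the medium cannot be told apart. The primed libraries share the basal medium and also differed at all 3. The tile stood at 15.7% in KO primed and 56.7% in WT primed cells, and RNF17 at 95.4 and 76.8%. MCTS2 stood at 76.6% in KO primed and 9.18% in WT primed cells, against 31.8% in KO naive and 31.5% in WT naive cells. The cause was not tested.

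Chromosome X lies outside the autosomal comparison. Over 32008 of its cytosines the KO level was 59.5% (SD 30.9) in primed and 40.97% (SD 24.1) in naive cells, a difference of -18.6 points, and 79.1% of the cytosines were lower.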

How the results depend on the processing

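No paired analysis was possible because each group is 1 library and the replicate numbers only name it. The mean difference stayed negative under all alternatives run. It was -22.2 points with at least 5 reads, -20.02 with at least 20, -22.1 with at most 100 reads, -22.02 with strands merged, -20.5 with unlisted cytosines filled in at 0, -17.3 pooled over reads, -21.3 on each library's own cytosines and -22.4 on the minus strand. Fisher's exact calls with Benjamini-Hochberg adjustment numbered 77503 lower and 1469 higher with at least 20 reads, 109188 and 1561 with 10 reads in all 4 libraries, 91347 and 1121 at 50 points, 1241 and 1 with scaled reads, and 20909 and 166 with 10 reads drawn (114745 and 2125 at an unadjusted p under 0.05). Tiles numbered 29967 lower and 194 higher with at least 5 reads, 3691 and 28 with at least 20, 6793 and 42 with 10 reads in all 4 libraries, 4784 and 28 with at least 10 cytosines, and 2586 and 9 at 50 points; filling in gave 182 higher. Promoters numbered 164 lower and 1 higher with at least 20 reads, 264 and 1 with 10 reads in all 4 libraries, 228 and 0 with at least 10 cytosines, and 129 and 0 at 50 points; filling in gave 6 higher. Settings on reads, cytosines per unit and filling in change the number of sites tested. The comparison of placing rules was added after seeing the data: the rule first planned gave 721 lower and 6 higher of 1988 promoters, the first looser rule 734 and 5 of 1710, the second 621 and 3 of 1444, and placing by pattern alone 474 and 3 of 1136.

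Of 519 values for 90 named tiles and promoters under 7 alternatives, 491 stayed within a wide tolerance and 12 moved beyond it. Values counted as within this tolerance could still cross the limit of 25 points. With a minimum of 5 reads LINC02723 went from 27.6 to 17.4 points and GRB10 from -16.4 to -26.7 points. With unlisted cytosines filled in at 0, PCDHGA11 went from -48.5 to -60.6 points, also within it. The remaining 16 values changed sign, and the causes were not tested. With at least 5 reads these were chr7:296001-297000 (-0.653), chr21:46722001-46723000 (-0.748), chr13:99483001-99484000 (-1.95), LOC105378690 (-1.18) and NAA60 (1.30). With at least 20 reads they were chr13:44543001-44544000 (9.11) and chr16:909001-910000 (8.19). With strands merged they were chr13:99483001-99484000 (-0.541) and NAA60 (8.10). With 10 reads in all 4 libraries they were chr7:296001-297000 (-7.72), chr18:76541001-76542000 (15.2), chr16:909001-910000 (2.53) and SVOPL (1.08). With 10 reads drawn they were chr17:83001-84000 (1.54), chr18:76541001-76542000 (0.5) and BOLL (-2.22).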
